A study of Homo sapiens with 8 samples.

Results

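The cytosolic ribosomal proteins are the proteins that, together with ribosomal RNA, make up the ribosomes of the cytoplasm. Their genes were chosen by symbol: RPL or RPS followed by a number and at most an A, X or L suffix, plus RPLP0, RPLP1, RPLP2 and RPSA. This rule found 84 of the 20263 genes in the table, 52 of the large subunit and 32 of the small subunit. Of these, 82 (50 large, 32 small) reached a mean of at least 1 CPM (read counts scaled to a common library total) over the libraries and were tested among 11827 genes.

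RNA was sequenced from MHCC-97H, an established human hepatocellular carcinoma cell line, after 24 hours in DMSO, the drug's solvent, or in lenvatinib, a drug for liver cancer that blocks receptor tyrosine kinases such as those for VEGF and FGF. DMSO had 4 libraries, and the doses 40, 60, 80 and 100 µM had 1 library each. The design asks what sets treated cells apart from untreated ones of the line. Nothing in the labels says that the DMSO libraries came from separate cultures, so their spread behind a p-value may be technical only. Where the lenvatinib libraries are pooled against DMSO, differences between doses count as spread as well.

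A ribosome needs nearly all of these proteins in equal numbers, so cells make them in matched amounts and degrade the surplus. Large subunit proteins surround the peptidyl transferase centre, line the exit tunnel or form the stalk that recruits translation factors, whereas small subunit proteins hold the messenger RNA and the decoding site. Most of their messages start with an uninterrupted run of pyrimidines, the 5′ terminal oligopyrimidine (TOP) motif, through which mTORC1 signalling controls their translation, and growing tumour cells are known for abundant ribosomal protein messages.

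Of the genes the results turn on, the deposited positions place RPS2 (ENSG00000140988) on GRCh38 at chr16:1962052-1964860, RPL5 (ENSG00000122406) at chr1:92832025-92841924, RPS6 (ENSG00000137154) at chr9:19375715-19380254, RPS26 (ENSG00000197728) at chr12:56041853-56044675 and RPL26L1 (ENSG00000037241) at chr5:172958729-172969771. Ribosomal protein genes have many near-identical processed pseudogenes and a few readthrough neighbours. How reads they share were counted is not given here, so values of single genes, paralogs above all, are uncertain in that respect.

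The run was looked for at the start sites that RefSeq lists on GRCh38.p14, taken on the transcript strand as a C at the first base followed by at least 4 further bases that are each C or T. It was present in 47 of the 67 genes with a listed start (70.1%), 29 of 42 in the large and 18 of 25 in the small subunit, against 692 of 9228 tested genes (7.50%). The windows printed here run from 10 bases before to 20 bases from the start, 5′ to 3′, with the run in capitals. They show RPLP0 of the stalk, RPS6, RPS24 and RPS26, which the results single out, and 3 genes beside their paralogs.
RPLP0: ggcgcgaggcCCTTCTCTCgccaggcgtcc
RPS6: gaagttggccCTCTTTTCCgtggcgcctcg
RPS24: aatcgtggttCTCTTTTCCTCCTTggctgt
RPS26: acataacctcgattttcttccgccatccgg
RPL22: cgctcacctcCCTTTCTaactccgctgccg
RPL22L1: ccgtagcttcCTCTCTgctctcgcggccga
RPL26: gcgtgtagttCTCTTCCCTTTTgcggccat
RPL26L1: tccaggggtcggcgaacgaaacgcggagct
RPS27: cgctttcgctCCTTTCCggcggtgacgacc
RPS27L: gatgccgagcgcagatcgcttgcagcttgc
These windows lie at chr12:120201092-120201121 (minus strand) for RPLP0, chr9:19380217-19380246 (minus) for RPS6, chr10:78033853-78033882 (plus) for RPS24 and chr12:56041908-56041937 (plus) for RPS26. The paralog pairs lie at chr1:6199576-6199605 (minus) for RPL22 and chr3:170870176-170870205 (minus) for RPL22L1, at chr17:8383174-8383203 (minus) for RPL26 and chr5:172958719-172958748 (plus) for RPL26L1, and at chr1:153990752-153990781 (plus) for RPS27 and chr15:63157458-63157487 (minus) for RPS27L. RPL22L1 keeps a run of 6 pyrimidines at its start, while RPL26L1 and RPS27L have none in this position although their partners have runs of 12 and 7. A missing run says only that these letters are not at the listed start.

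The libraries held between 10181973 counts (60 µM) and 37384578 counts (80 µM). They also differed by the GC content of the genes they favoured. For each library a GC slope was taken: how far, in log2 units, its values departed from the 8-library mean for each 10 points of transcript GC content. DMSO libraries 1 to 4 had GC slopes of 0.28, -0.50, -0.99 and -0.10. The slopes from 40 to 100 µM were 0.67, 1.82, -0.58 and -0.60, so that the 60 µM library, which was also the shallowest, stood apart. No pair of libraries was identical. Of the markers of a hepatocyte, HNF4A had 1352 reads in all and SERPINA1 99, both with reads in every library, while ALB, AFP and APOA1 had 6, 2 and 10 reads, all in the 60 µM library, and TTR had none. The secreted products that define hepatocytes were thus at or near 0. Of the epithelial markers, the keratins KRT8 and KRT18 were abundant, while EPCAM had 125 and CDH1 232 reads over all libraries. Among markers of other cell types, PTPRC, CD3E and COL1A2 were at 0 in every library, while over all libraries CD68 had 1579, COL1A1 7853, PDGFRB 8051, DCN 3652 and VWF 394 reads. Their part in the results was not tested.

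Ribosomal protein messages were among the most abundant in every library. On the deposited length-scaled TPM, 44 of the 100 highest genes in DMSO were of this set, and the median over the 82 tested genes was 1570 TPM, against 13.4 TPM over all tested genes. The highest were RPS2, at the messenger RNA entry of the small subunit, with a median of 10559 TPM over the DMSO libraries (range 7517 to 12703), RPL7A with 9183 TPM (range 6891 to 9967) and RPL35, at the rim of the tunnel exit, with 7702 TPM (range 5925 to 8617). The lowest tested genes were paralogs: RPL22L1 with 19.7 TPM, RPS27L with 30.5 TPM and RPL7L1 with 30.8 TPM. RPL10L, a retrogene known from testis, had 4 reads in all 8 libraries, and RPL3L, known from striated muscle, had 10, 0, 15 and 12 reads in DMSO libraries 1 to 4 and 0, 6, 9 and 7 reads from 40 to 100 µM. Both fell under the filter and were not tested.

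The 84 genes held 10.4%, 8.46%, 6.72% and 9.56% of all counts in DMSO libraries 1 to 4. Their shares from 40 to 100 µM were 11.0%, 10.3%, 7.75% and 8.49%. The 40 µM library lay just above the DMSO range and the other 3 lenvatinib libraries inside it. The widest 95% Wilson interval, at 60 µM, was 10.27% to 10.31% and covers counting error only. The arms overlapped, with a DMSO mean of 8.78% ± 1.58 and a lenvatinib mean of 9.38% ± 1.52 (SD, 4 libraries each). The lenvatinib SD includes differences between doses. On TPM the shares ran from 14.8% to 19.2% in DMSO and from 16.2% to 20.01% with lenvatinib.

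**Figure D1:**
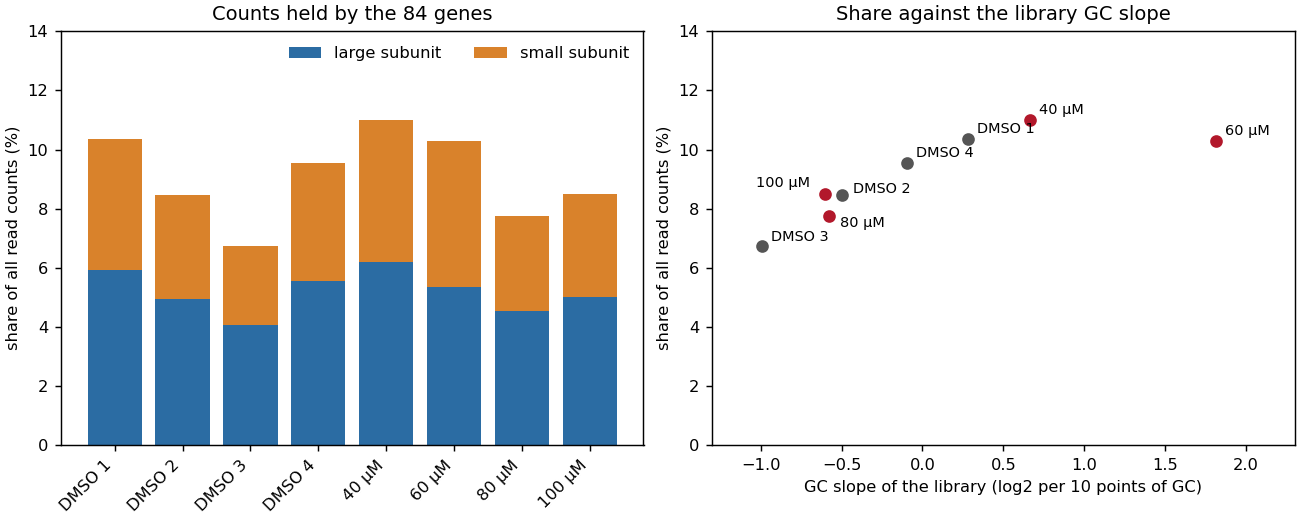
Left: share of all read counts (%) held by large and small subunit genes in each library, stacked bars from 0. Right: the same total share against the GC slope of the library (log2 per 10 points of GC), DMSO in grey and lenvatinib in red. The share is lowest in DMSO 3 (6.72%), which has the lowest GC slope, and highest at 40 µM (11.0%).

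The summed balance between the subunits differed at 60 µM. The summed TPM of the small subunit divided by that of the large subunit was 0.849, 0.817, 0.763 and 0.826 in DMSO libraries 1 to 4. The doses in ascending order gave 0.884, 1.06, 0.851 and 0.828. Only the 60 µM library had more TPM in the small than in the large subunit, and the value at 100 µM lay inside the DMSO range. A sum weighs abundant genes most, and RPS2, the most abundant in DMSO, had a log2 fold change of 2.09 at 60 µM. The ratio without RPS2 was not calculated, so a shift of the whole small subunit cannot be read from it. In bulk RNA fewer cells of a kind and less RNA per cell cannot be told apart, and levels here are relative to each library's total.

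Most ribosomal protein genes were high together or low together in a library, also among libraries of the same treatment. Each gene's level was expressed as log2 CPM, scaled by TMM (a factor per library that evens out composition), minus the mean of the DMSO libraries. The median over the 82 genes was 0.51, -0.15, -0.60 and 0.24 in DMSO libraries 1 to 4. For the doses in ascending order it was 0.74, 0.67, -0.42 and -0.26. Between DMSO 1 and DMSO 3, which received no drug, 75 of the 82 genes were higher in DMSO 1, with a median difference of 1.10, while the median over all tested genes was -0.08. The same number, 75, had levels that increased with the GC slope over the 4 DMSO libraries (median 0.87 log2 units per unit of slope, against -0.05 over all tested genes). These genes are not themselves rich in GC: the longest transcripts had a median GC content of 47.9%, against 49.1% over all tested genes, and a median length of 1864.5 against 3676 bases. The part of length in this pattern was not tested separately from GC content.

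**Figure D2:**
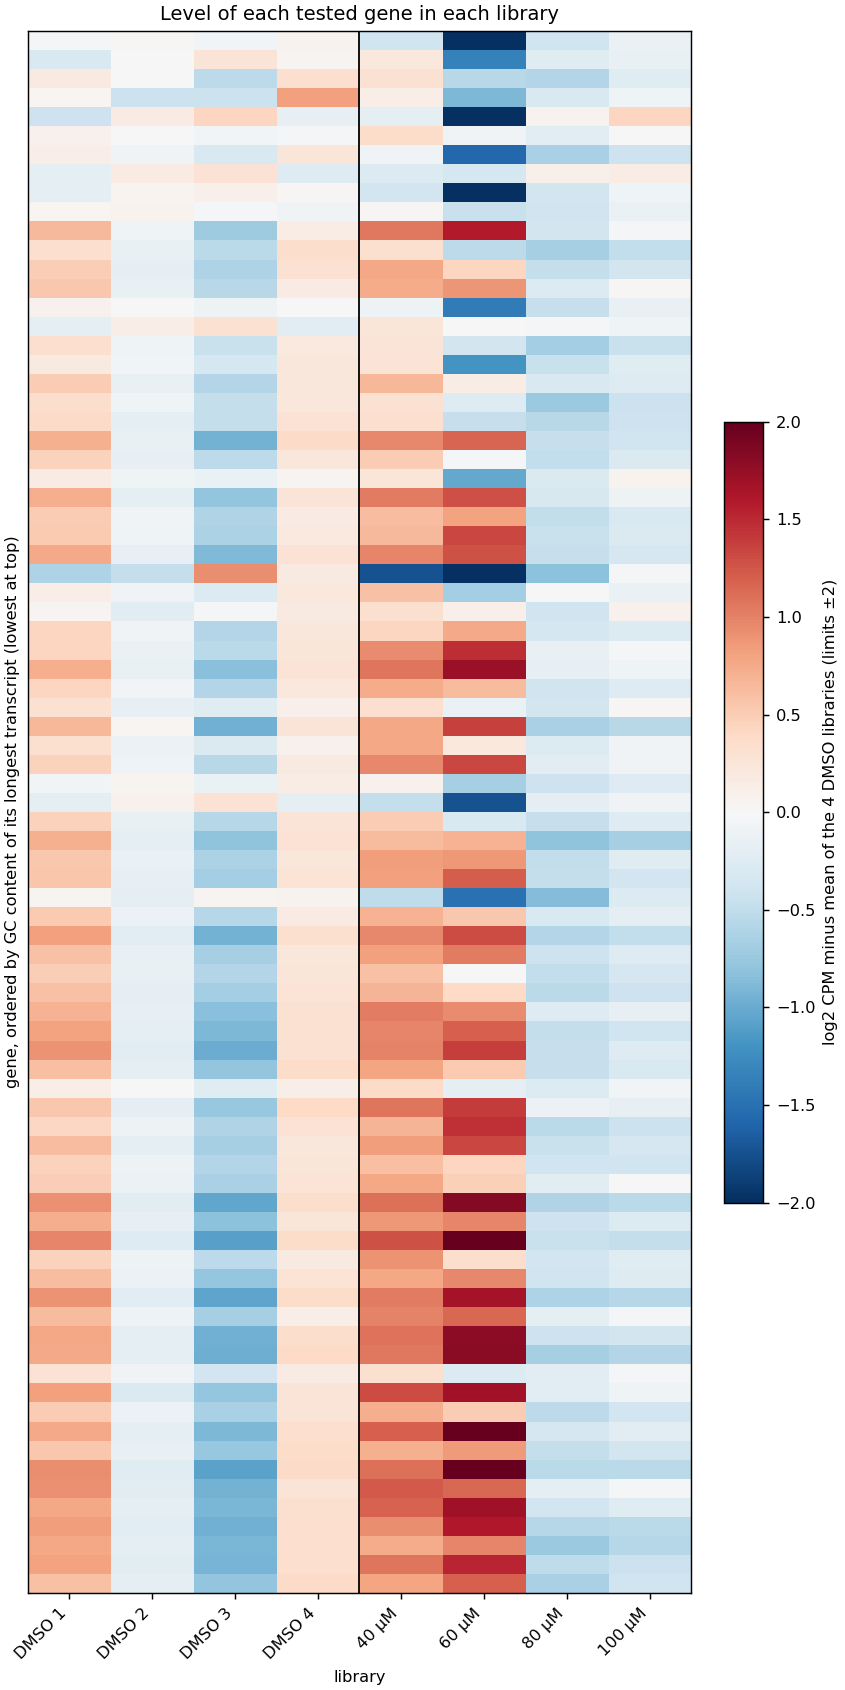
Level of each of the 82 tested genes (one per line, ordered by GC content of the longest transcript, lowest at the top) in each library, as log2 CPM minus the mean of the DMSO libraries, with colours limited at ±2. DMSO 1 and 40 µM are mostly red and DMSO 3 and 80 µM mostly blue, and the 60 µM column has most of its blue fields near the top and is mostly red near the bottom.

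With all 4 lenvatinib libraries against the 4 DMSO libraries, no ribosomal protein gene was called. The edgeR quasi-likelihood test called 0 of 82 at a Benjamini-Hochberg adjusted p under 0.05, and 0 of all 11827 genes (0% higher and 0% lower), with 523 genes, 1 of them a ribosomal protein gene, at an unadjusted p under 0.05. DESeq2 also called 0 of the 82, while it called 0.499% of all genes higher and 0.296% lower. The median log2 fold change was 0.15 in the large subunit (31 of 50 positive) and 0.38 in the small subunit (24 of 32 positive), against -0.11 over all tested genes. Without the 60 µM library these medians were 0.01 and 0.05. With the library totals alone as scaling, which moves the median of all genes to -0.20, they were -0.08 and 0.09, that is 0.12 and 0.29 above the median of all genes.

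The groups overlapped for nearly every gene. All 4 lenvatinib libraries lay above all DMSO libraries for 0 of the 82 genes (3.08% of all tested genes) and below them for 3 (3.38% of all tested genes), namely RPL5, RPL17 and RPL26L1. RPL17 lines the exit tunnel and is named because it is 1 of these 3, after its values were seen. It had 277, 263, 242 and 259 CPM in DMSO libraries 1 to 4 and 242, 98.3, 188 and 235 CPM from 40 to 100 µM. The highest lenvatinib library, 40 µM, and the lowest DMSO library, DMSO 3, were almost level.

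The stalk proteins RPLP0, RPLP1 and RPLP2 recruit and activate elongation factors. RPLP0 had 4634, 2141, 1243 and 3078 CPM in DMSO libraries 1 to 4 and 4922, 6499, 1811 and 2086 CPM from 40 to 100 µM. It was highest at 60 µM and lowest in DMSO 3, and the groups overlapped. Its log2 fold change was 0.47 ± 0.55 (SE; edgeR adjusted p = 0.874), and those of RPLP1 and RPLP2 were 0.74 ± 0.53 and 0.51 ± 0.59.

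Genes of the peptidyl transferase centre, where peptide bonds are made, were highest at 40 µM (RPL3) or at 60 µM (RPL10). RPL3 had 2542, 1721, 1288 and 2101 CPM in DMSO libraries 1 to 4 and 3470, 2365, 1417 and 1566 CPM from 40 to 100 µM. RPL10, which docks near the centre late in subunit assembly, had 2000.1, 1153, 821 and 1519 CPM in DMSO and 2315, 3284, 954 and 1027 CPM from the lowest to the highest dose. Both were lowest in DMSO 3, and the lenvatinib libraries lay on either side of the DMSO mean. Their log2 fold changes were 0.20 ± 0.38 and 0.46 ± 0.49, with groups that overlapped.

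Along the exit tunnel, through which the new chain leaves, genes differed from each other at 60 µM. RPL39 had 557, 386, 278 and 459 CPM in DMSO libraries 1 to 4 and 796, 1028, 352 and 389 CPM from the lowest to the highest dose. RPL4 had 1871, 1630, 1418 and 1993 CPM in DMSO and 2570, 1068, 1704 and 1556 CPM from the lowest to the highest dose. At 60 µM RPL39 stood above every other library and RPL4 below every other one. Over both arms RPL39 was at 0.61 ± 0.42 in log2 fold change and RPL4 at -0.0028 ± 0.33 (edgeR adjusted p = 0.874 and 0.999).

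RPL5 and RPL11 bind the 5S ribosomal RNA together, and outside the ribosome the same particle binds the p53 regulator MDM2. RPL5 had 824, 858, 817 and 888 CPM in DMSO libraries 1 to 4 and 642, 130, 645 and 771 CPM from 40 to 100 µM. DMSO libraries were close to each other (847 ± 32.7, SD, n = 4), every lenvatinib library was lower, and the 60 µM library was far below the rest. RPL11 had 879, 649, 580 and 748 CPM in DMSO and 1205, 817, 585 and 670.5 CPM from 40 to 100 µM, with overlapping groups. The log2 fold change was -0.63 ± 0.49 for RPL5 (edgeR adjusted p = 0.874) and 0.20 ± 0.32 for RPL11. Without the 60 µM library the log2 fold change of RPL5 was -0.29.

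Around the messenger RNA channel of the small subunit the values were mostly positive, as they were over the whole small subunit (24 of 32). RPS2 had 8785, 4518, 2788 and 6549 CPM in DMSO libraries 1 to 4 and 11850, 24091, 4101 and 4473 CPM from 40 to 100 µM. The 40 and 60 µM libraries lay above every DMSO library, and the 80 and 100 µM libraries lay inside the DMSO range. Its log2 fold change, 0.98 ± 0.64 (SE; edgeR adjusted p = 0.874), was the highest of the 82. RPS3 and RPS9, which stand with RPS2 at the entry of the channel, were also positive, and the median of the 3 genes was 0.64. In the fit with the GC slope as a covariate, given below, all 3 were negative, with a median of -0.19.

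RPS6, the substrate of the S6 kinases downstream of mTORC1, and RPS24 and RPS3A were on the negative side. RPS6 had 932, 807, 683 and 1001 CPM in DMSO libraries 1 to 4 and 805, 285, 542 and 633 CPM from 40 to 100 µM. It was lower than every DMSO library at 60, 80 and 100 µM but not at 40 µM. Its log2 fold change was -0.60 ± 0.35 (SE; edgeR adjusted p = 0.874), and that of RPS3A was -0.34 ± 0.38. RPS24 had 275, 408, 489.9 and 325 CPM in DMSO and 323, 85.8, 383 and 490.2 CPM from the lowest to the highest dose, so that the 60 µM library alone fell outside the DMSO range by more than 1 CPM. RPS19, which small subunit maturation needs and which is known from Diamond-Blackfan anaemia, lay on the other side: it had 2292, 1062, 766 and 1551 CPM in DMSO and 3206, 4176, 1127 and 1234 CPM from the lowest to the highest dose, or 0.78 ± 0.54 in log2 fold change. RPSA, also known as a laminin receptor, was at 0.38 ± 0.52, and RPS27A, made as a fusion with ubiquitin, at -0.30 ± 0.32.

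**Figure D3:**
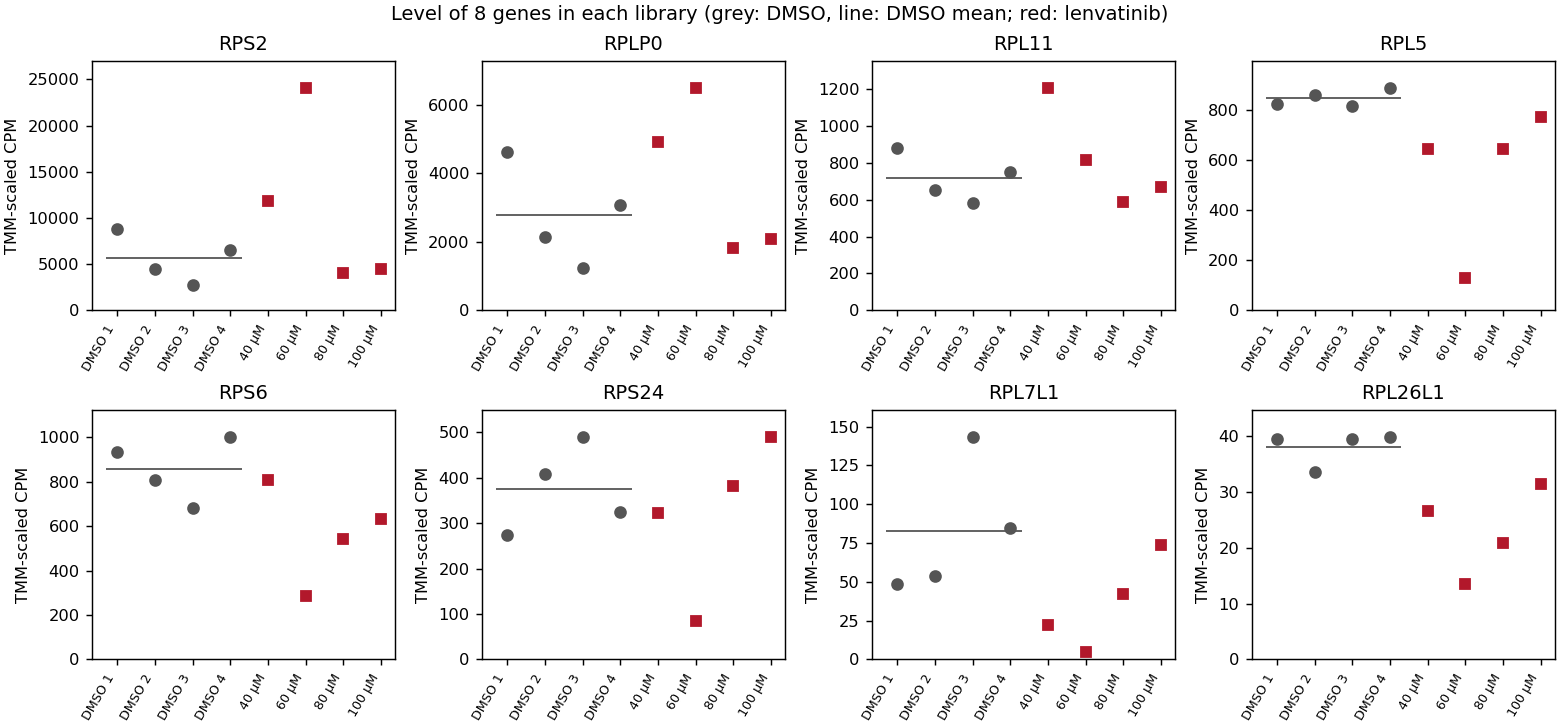
TMM-scaled CPM of 8 genes in each library, axes from 0, with DMSO libraries as grey circles, their mean as a line and lenvatinib libraries as red squares. RPS2 and RPLP0 are highest at 60 µM, whereas RPL5, RPS6, RPS24, RPL7L1 and RPL26L1 are lowest there.

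When each library's GC slope was added as a covariate, most values were below zero and still no gene was called. With offsets smooth in GC content in place of the covariate the direction was the opposite: medians were 0.51 in the large and 0.66 in the small subunit, with 72 of 82 positive, and 0.46 and 0.52 when these offsets also followed length. The test with the covariate called 0 of 82 genes, against 1.48% of all tested genes called higher and 1.78% called lower. It also called 0 of 82 with offsets smooth in GC content, and 4 of all tested genes higher and 3 lower. With the covariate, medians were -0.21 in the large subunit (7 of 50 positive) and -0.18 in the small subunit (7 of 32 positive), against -0.06 over all tested genes. RPS2 went from 0.98 to -0.0034 ± 0.14 (edgeR adjusted p = 0.994), and RPL28, the highest of the large subunit without the covariate, from 0.80 ± 0.67 to -0.17 ± 0.18 (edgeR adjusted p = 0.640). The lowest values belonged to RPL7L1 (-0.77 ± 0.30, edgeR adjusted p = 0.200), RPL26L1 (-0.59 ± 0.21, edgeR adjusted p = 0.174), RPS6 (-0.52 ± 0.30, edgeR adjusted p = 0.372) and RPS26 (-0.52 ± 0.21, edgeR adjusted p = 0.210). RPS24 was the highest at 0.15 ± 0.22 (edgeR adjusted p = 0.754).

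**Figure D4:**
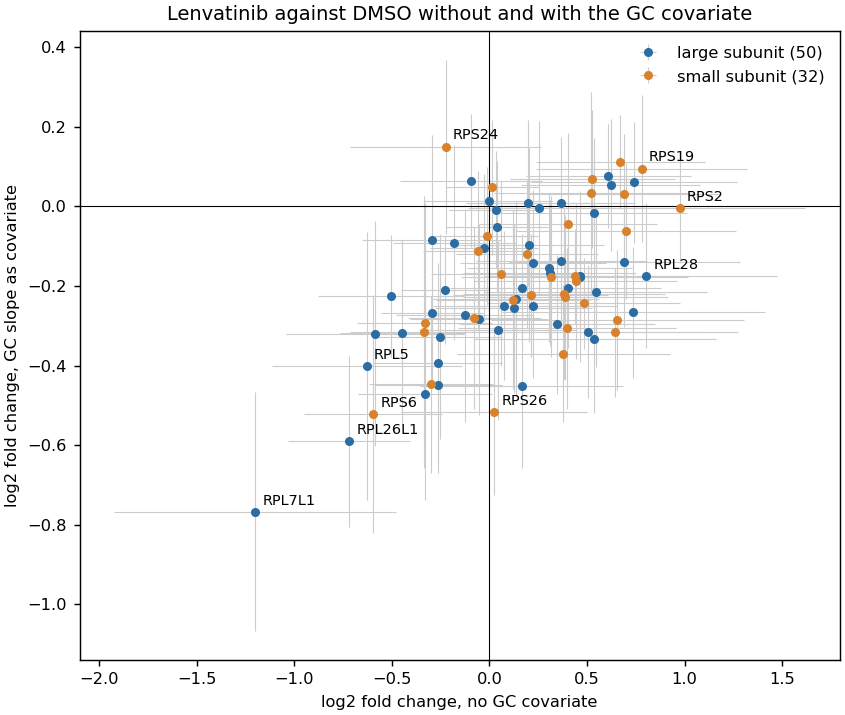
Log2 fold change of each tested gene, lenvatinib against DMSO, without (horizontal axis) and with (vertical axis) the GC slope as covariate; bars are standard errors, blue the large and orange the small subunit. Values spread from -1.20 to 0.98 without the covariate and from -0.77 to 0.15 with it.

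The count of called genes in the GC-adjusted fit depended on the 60 µM library and on the tool. Without the 60 µM library, edgeR called 13 of 82 genes lower and 0 higher, against 13.7% of all genes called lower and 9.63% higher. The 13 were RPS26, RPS27A, RPS6, RPL35A, RPL36, RPL24, RPL14, RPL26L1, RPS9, RPL5, RPL23A, RPL18 and RPLP2, and they make up 15.9% of the 82, near the share over all genes. RPS26, which contacts the messenger RNA at the channel's exit, had the lowest adjusted p (log2 fold change -0.43 ± 0.07, edgeR adjusted p = 0.00298). DESeq2 with all libraries called 5 lower (RPS26, RPS9, RPL26L1, RPS10 and RPL36), against 10.5% of all genes called lower and 6.75% higher. With a block on the number in the titles, RPL7L1 was called lower and 0 genes higher, against 1.14% and 0.82% of all genes. With the 80 and 100 µM libraries alone, 5 genes were called lower (RPS26, RPS27A, RPS6, RPL35A and RPL36) and RPS28 and RPLP1 higher, against 11% and 9.67% of all genes. Genes in these sets that the rule for named genes does not cover are listed after their values were seen.

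RPS26 and RPL36 were in 3 of these 4 sets and not in that of the block. RPS26 had 1017, 544, 357 and 766 CPM in DMSO libraries 1 to 4 and 964, 1011, 359 and 394 CPM from 40 to 100 µM. Against the common course of the set, it was no higher at 40 and 60 µM than in DMSO 1, and at 80 and 100 µM it was near DMSO 3, although those libraries have GC slopes near that of DMSO 2.

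Single libraries were also set side by side, 2 of the pairs with similar GC slopes. The 80 µM library (slope -0.58) and DMSO 2 (slope -0.50) differed by a median of -0.29 over the ribosomal protein genes, with 77 of 82 lower at 80 µM. The 100 µM library (slope -0.60) and DMSO 2 differed by a median of -0.16, with 61 of 82 lower at 100 µM. Over all tested genes the medians of these pairs were -0.03 and -0.02. The 40 µM library (slope 0.67) and DMSO 1 (slope 0.28) were less alike in slope and differed by a median of 0.17, with 66 of 82 higher at 40 µM, against -0.03 over all tested genes. Each pair has 1 library a side, so these differences have no replicate check. The medians of DMSO 2 and DMSO 3 against the DMSO mean, -0.15 and -0.60, lay further apart than those of DMSO 2 and 80 µM (-0.42).

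Across doses the fitted slope was negative in most genes, and none passed the test. The dose slope is given per 20 µM on the log2 scale and comes from the lenvatinib libraries alone. The edgeR test called 0 of 82 genes, and 0% of all tested genes higher or lower, with 875 genes, none of them a ribosomal protein gene, at an unadjusted p under 0.05. Medians were -0.35 in the large subunit (7 of 50 positive) and -0.48 in the small subunit (1 of 32 positive), against 0.06 over all tested genes. A slope over all 8 libraries, with DMSO at dose 0 and no arm term, had medians of -0.03 and -0.01 (31 of 82 positive), against -0.0061 over all tested genes. DESeq2 called 0 of the 82 for the dose slope, against 0.955% of all genes higher and 0.152% lower. With library totals alone as scaling, which moves the median of all genes to 0.36, they were -0.04 and -0.15. The GC slopes of the libraries themselves went from 0.67 and 1.82 at 40 and 60 µM to -0.58 and -0.60 at 80 and 100 µM, positive at the lower pair of doses and negative at the higher pair.

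With the GC slope in the dose fit, medians were -0.10 in the large and -0.09 in the small subunit (4 of 50 and 2 of 32 positive), against -0.06 over all tested genes, and 0 of 82 genes were called (0% of all genes). With offsets smooth in GC content in place of the covariate the medians were -0.53 and -0.70, and -0.41 and -0.64 when these offsets also followed length. DESeq2 with the covariate also called 0 of 82, against 0.0761% of all genes higher and 0.0423% lower. The lowest 2 slopes of each subunit belonged to RPL7 at -0.39 ± 0.13, RPL4, which lines the exit tunnel, at -0.32 ± 0.18, RPS7 at -0.27 ± 0.21 and RPS6 at -0.24 ± 0.21 (edgeR adjusted p = 0.994 for each). These values rest on single libraries. Without the 40 µM library the adjusted medians were 0.38 and 0.39, and without the 60 µM library 0.08 and 0.09, on the other side of zero.

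Set dose by dose against DMSO, the lower and the higher pair of doses fell on opposite sides. Medians in the large and small subunit were 0.62 and 0.68 at 40 µM, 0.39 and 0.94 at 60 µM, -0.48 and -0.51 at 80 µM, and -0.30 and -0.34 at 100 µM. Over all tested genes they were -0.09, -0.74, -0.05 and -0.05 in the same order. With library totals alone, which puts the median of all genes at -0.56, -1.57, 0.17 and 0.16, the large subunit turned negative at 60 µM (-0.36) and the other medians kept their sign, with 0.23 and 0.29 at 40 µM, 0.21 for the small subunit at 60 µM, -0.19 and -0.18 at 80 µM, and -0.02 and -0.04 at 100 µM. At 40, 80 and 100 µM edgeR called no gene of the set, nor any other tested gene (0% in each direction), with 1019, 336 and 261 of all genes and 1, 1 and 0 of the 82 at an unadjusted p under 0.05. DESeq2 called 0 of the 82 at these doses as well, against 0.262% of all genes higher and 5.39% lower at 40 µM, 0.0338% and 0.287% at 80 µM, and 0.0423% and 0.211% at 100 µM. The opposite sides are a description of 4 single libraries.

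At 60 µM edgeR called genes of the set without a covariate: 1 of 82 genes higher and 9 lower, against 11.9% of all tested genes higher and 25.3% lower. RPS2 was higher (2.09 ± 0.63, SE; edgeR adjusted p = 0.0493). RPL5 (-2.70 ± 0.42, edgeR adjusted p = 0.0260), RPL6 (-2.43 ± 0.41, edgeR adjusted p = 0.0267), RPL7L1, RPL26L1, RPL22, RPS24, RPL17, RPS6 and RPL7 were lower. RPL6 had 533, 633, 650.4 and 618 CPM in DMSO and 113 CPM at 60 µM, against 468, 468 and 572 CPM at the other doses. The 9 lower genes had transcripts of 37.4% to 48.1% GC, and RPS2 of 56.8%. These values lay largely inside the span of the 72 genes not called, 40.6% to 63.7%. Over the 82 genes, the log2 deviation at 60 µM went with GC content (Pearson r = 0.59, across genes of 1 library, which are not independent replicates). Over all tested genes r was 0.73 at 60 µM, and over the 82 genes in DMSO 1 it was 0.62. The calls rest on 1 library and on the spread of the DMSO libraries. Without DMSO 2 or without DMSO 4, edgeR called 0 of the 82 genes, and 0 of all genes, at this dose. Without DMSO 1 it called 18 higher and 9 lower (19.9% and 36.7% of all genes), and without DMSO 3 it called 13 higher and 11 lower (18.2% and 34.2%). DESeq2 called 29 higher and 11 lower (23.7% and 36.9% of all genes). With library totals alone, which moves the median of all genes at this dose to -1.57, edgeR called 0 higher and 23 lower (5.02% and 22%).

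**Figure D5:**
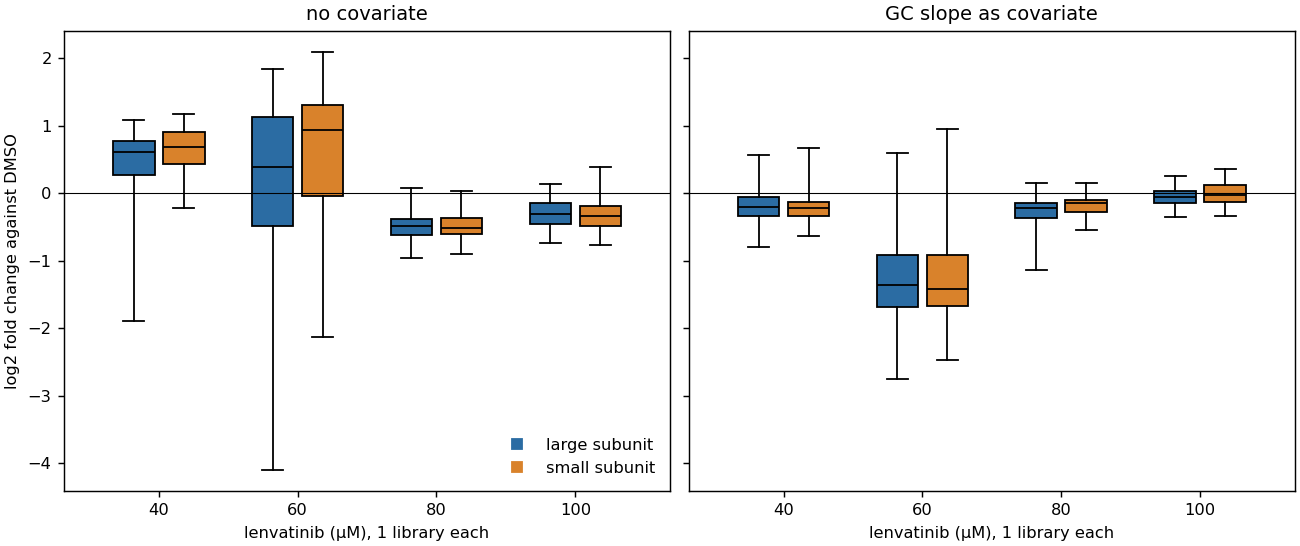
Log2 fold change of large (blue) and small (orange) subunit genes at each dose against DMSO, 1 library per dose, without (left) and with (right) the GC slope as covariate. Boxes are quartiles with the median and whiskers span all genes; the medians at 40 and 60 µM lie above zero on the left and below zero on the right.

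With the GC slope as covariate in these fits, 68 of 82 genes were called lower and 1 higher at 60 µM (82.9% lower, against 28.8% of all tested genes lower and 5.87% higher). There the covariate is estimated from the DMSO libraries alone, whose slopes span -0.99 to 0.28, and the 60 µM library at 1.82 and the 40 µM library at 0.67 lie outside that span. RPS2 changed from called higher to called lower (-0.59 ± 0.17, edgeR adjusted p = 0.0337), and RPS27L was the gene called higher (0.94 ± 0.29, edgeR adjusted p = 0.0441). At 40 µM 0 of 82 were called, against 1.42% lower and 0.364% higher, with medians of -0.21 and -0.22.

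At 80 µM, inside the span of the DMSO slopes, 9 of 82 genes were called lower with the covariate (11.0%) and 0 higher, against 7.15% of all tested genes lower and 4.22% higher. They were RPS26 (-0.50 ± 0.08, edgeR adjusted p = 0.0134), RPL35A, RPS27A, RPL26L1 (-0.86 ± 0.16, edgeR adjusted p = 0.0230), RPL36, RPL17, RPS6 (-0.55 ± 0.12, edgeR adjusted p = 0.0301), RPL6 and RPL5 (-0.38 ± 0.09, edgeR adjusted p = 0.0369). At 100 µM 0 of 82 were called, against 4.1% of all genes lower and 2.09% higher, with medians of -0.06 and -0.03. This fit has 2 residual degrees of freedom and 1 lenvatinib library per dose.

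Paralogs did not all follow their partners. Levels are given as the paralog's TPM in percent of its partner's. RPL26L1 stood at 9.36%, 9.05%, 11.4% and 10.6% of RPL26 in DMSO libraries 1 to 4 and at 5.46%, 7.07%, 6.76% and 7.77% from 40 to 100 µM. All 4 lenvatinib libraries were lower than all DMSO libraries in this ratio. For levels of single genes, 3.38% of all tested genes lay wholly below in this way. RPL26L1 itself had 39.4, 33.6, 39.4 and 39.8 CPM in DMSO and 26.6, 13.5, 20.7 and 31.3 CPM from 40 to 100 µM, or -0.72 ± 0.31 in log2 fold change (edgeR adjusted p = 0.874), beside -0.18 ± 0.32 for RPL26.

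RPL7L1, a paralog of RPL7 known from the assembly of the large subunit, had the lowest log2 fold change of the set, -1.20 ± 0.72 (SE; edgeR adjusted p = 0.874). It had 48.8, 53.9, 143 and 84.7 CPM in DMSO libraries 1 to 4 and 22.4, 4.83, 42.4 and 73.8 CPM from 40 to 100 µM. It was highest in DMSO 3, where most of the set was lowest. RPL7L1 stood at 2.75% to 5.90% of RPL7 in DMSO and at 0.846% to 4.31% with lenvatinib, ranges that overlapped. RPL39L stood at 4.76% to 6.05% of RPL39 in DMSO and at 5.19% to 5.99% with lenvatinib, RPL22L1 at 5.84% to 8.28% of RPL22 against 5.95% to 13.4% (highest at 60 µM), and RPS27L, a p53 target, at 0.489% to 1.59% of RPS27 against 0.306% to 1.06%. The ranges of these 3 ratios overlapped between the arms.

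Genes with and without the TOP run had overlapping values. Over the 47 genes with the run the median log2 fold change was 0.31 without and -0.20 with the GC covariate, and over the 19 tested genes with a listed start but no run it was 0.02 and -0.21. Both groups ranged widely, from -0.60 to 0.80 and from -1.20 to 0.70 without the covariate.

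Other genes of the translation machinery were described from lists chosen for the pathway. Without and with the GC covariate the median log2 fold change was -0.18 and -0.36 over 78 mitochondrial ribosomal proteins, -0.49 and -0.42 over 55 genes of ribosome assembly and RNA polymerase I, and -0.15 and -0.18 over 20 further TOP messages such as EEF1A1, EEF2 and TPT1. No gene of these 3 lists was called in either fit. Of all tested genes 0% were called without the covariate, and 1.48% higher and 1.78% lower with it. With the covariate 54 of the 55 assembly genes, 75 of the 78 mitochondrial ribosomal proteins and 15 of the 20 further TOP messages were negative. Beside these were 68 of the 82 cytosolic genes and 6767 of all 11827 tested genes.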

How the data were processed

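RNA-seq of 8 libraries was deposited as 1 table per unit for 20263 genes. Per the file headers, the authors deposited whole-number read counts, TPM and FPKM. Per the submitters' processing notes, HISAT2, StringTie, bedtools and FastQC were used on GRCh38. Not given in the sources used here are tool versions, the annotation release, the strand setting and the treatment of multiply mapped reads. Ribosomal protein genes have many processed pseudogenes and some readthrough neighbours with near-identical sequence, so counts of single genes can be split or shared.

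Counts (10181973 to 37384578 per library; a count of 0 allows up to 3 counts, or 0.0802 to 0.295 CPM, counting error only) were fitted with edgeR 4.0.16 under R 4.3.3 over genes averaging 1 CPM or more: TMM scaling, robust quasi-likelihood fit, Benjamini-Hochberg adjusted p under 0.05 over all genes. Fits were lenvatinib against DMSO (6 residual degrees of freedom), a dose slope per 20 µM centred at 70 µM with an arm term, and each dose against DMSO with 5 groups, in which each dose's 1 library borrows the spread of DMSO. Each was repeated with the library's GC slope as a covariate, from the GC content of the longest GENCODE v29 transcript. The standard error is the log2 fold change over the square root of F. The fits of lenvatinib against DMSO and of the dose slope were run on simulated counts, and the fits of each dose were not. The simulation used a fixed spread for all genes and a straight GC trend. It therefore cannot show how the fits behave at the spread seen here. The deposited TPM served for levels between genes, shares and ratios, and the deposited FPKM was not used. Start windows are from RefSeq (GRCh38.p14). Starts on chr8 were left out, and 17 of the 84 genes had no start among those used.

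Values by library are given for the 2 highest and 2 lowest log2 fold changes of each subunit in the fits without and with GC adjustment, the same for the GC-adjusted dose slope, up to 6 called genes a side of each fit, the 3 highest and 3 lowest by TPM, and RPLP0, RPLP1, RPLP2, RPL5, RPL11, RPSA, RPS6, RPS27A and the paralogs with their partners. The members and lists were chosen with earlier results of these data known. Alternatives were DESeq2 1.42.0, limma-voom (limma 3.58.1), other scalings, filters and GC corrections, a block on title numbers and leaving out libraries. Some genes are not reported here.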

Additional observations from a re-analysis of the deposited data

Results flagged for a closer look

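RPL26L1, the paralog of RPL26, had 39.4, 33.6, 39.4 and 39.8 CPM in DMSO libraries 1 to 4. DMSO 2, at 33.6 CPM, lay far from the other 3, which were close together. Its gap to the next library took more of the group's range than Dixon's 95% critical value for 4 values allows. Such a gap arises by chance in about 1 of 20 groups, and 32 were looked at. All 4 lenvatinib libraries (13.5 to 31.3 CPM) lay below this value.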

How the results depend on the processing

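Without a GC covariate, edgeR, DESeq2 and limma-voom called 0 of the 82 genes for lenvatinib against DMSO and for the dose slope under each scaling, filter and left-out library. The medians of the large and small subunit were -0.38 and -0.40 with the 80 and 100 µM libraries only. Leaving out 1 library at a time gave -0.06 to 0.32 (large) and 0.05 to 0.62 (small) for lenvatinib against DMSO, and -0.53 to -0.32 and -0.62 to -0.39 for the dose slope.

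GC-adjusted, leaving out 1 library gave 0 to 13 genes called lower (13 without 60 µM, 0 otherwise) and medians of -0.31 to -0.13 and -0.28 to -0.08. DESeq2 called 5 lower. The 80 and 100 µM libraries alone gave 2 higher and 5 lower. Offsets smooth in GC content, in place of the covariate, gave medians of 0.51 (large) and 0.66 (small), and offsets smooth in GC content and length 0.46 and 0.52; the cause was not tested. For the GC-adjusted dose slope, the medians ran from -0.29 to 0.38 (large, 0.38 without 40 µM) and from -0.24 to 0.39 (small) when 1 library was left out, and they were -0.53 and -0.41 (large) and -0.70 and -0.64 (small) with the 2 kinds of offsets. A slope from dose 0 over all libraries gave -0.03 and -0.01 without the covariate. GC content of the longest protein-coding transcript and the pairs of libraries were chosen after seeing the data, as were the alternatives of each dose named next.

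At 60 µM, 29 genes were called higher with DESeq2 (23.7% of all genes) and 11 lower (36.9%). With library totals only, 0 were higher (5.02% of all genes) and 23 lower (22%). Leaving out 1 DMSO library gave 0 to 18 higher and 0 to 11 lower: without DMSO 1, 18 and 9 (19.9% and 36.7% of all genes), without DMSO 3, 13 and 11 (18.2% and 34.2%), without DMSO 2 or DMSO 4, none. With the covariate 68 were lower at 60 µM and 9 at 80 µM. At 60 µM the covariate turned the sign of RPL10 (-0.82), RPL11 (-0.80), RPL28 (-1.44), RPL3 (-1.29), RPL35 (-1.20), RPL7A (-1.90), RPLP0 (-1.77), RPLP1 (-0.89), RPLP2 (-1.43), RPS19 (-0.99), RPS2 (-0.59), RPS26 (-1.85), RPS27 (-0.59), RPSA (-1.65) and RPS27L (0.94); the 60 µM slope lies outside the span of the DMSO slopes.

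With a replicate block on the numbers that titles carry, 0 genes were called (medians 0.12 and 0.29), and with the GC covariate RPL7L1 alone was called, lower (-0.89 ± 0.17, edgeR adjusted p = 0.0273; 1.14% of all genes lower, 0.82% higher). The pairing is by number only: the number follows the dose in the lenvatinib arm, and the deviations of same-numbered libraries correlated at 0.63, -0.46, 0.84 and -0.61 for 40, 60, 80 and 100 µM, with 40 and 80 µM nearest to their own number.

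The 60 µM library is the shallowest, so low genes are least precise there, and 1 library per dose gives no replicate check of any dose.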
